A study of Mus musculus with 6 samples.

Results

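Molecular chaperones and protein folding enzymes were compared between RNA recovered with tagged ribosomes and RNA of the whole tissue in the mouse midbrain. The members were taken by gene symbol: heat shock proteins (Hsp, without the matrix proteoglycan Hspg2), J-domain proteins (Dnaj), subunits of the TRiC chaperonin (Cct2 to Cct8 and Tcp1), protein disulfide isomerases (Pdia), BAG co-chaperones, FK506-binding proteins and cyclophilins (Fkbp and Ppi), calreticulin, calnexin, Stip1 and St13. The deposited table held 76 such genes among 5538. In the GENCODE M21 annotation 121 protein-coding genes match the same symbols, and those without a value in the table were not analysed here. By their usual location, taken from textbook knowledge, 45 members were cytosolic, 13 belonged to the endoplasmic reticulum (ER), 10 to mitochondria, 6 to the nucleus and 2 to other places.

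All libraries came from C57BL/6 mice in which the Fos promoter drives the drug-dependent recombinase CreER and a Cre-inducible reporter makes eGFP-L10a, a ribosomal protein fused to a green fluorescent protein. Every mouse had 6 hr of sleep deprivation followed by 3 hr of recovery sleep, and the inducer 4-OHT was given right before 1 of these phases, so that cells with an active Fos promoter in that phase, awake or asleep, kept the tag. The series text speaks of cells tagged in recovery sleep, while the library labels do not say which phase was used. IP is the RNA that eGFP antibodies recovered with the tagged ribosomes. Input is taken to be the RNA of the dissected perioculomotor region ahead of the immunoprecipitation. There were 3 IP and 3 Input libraries, each a pool of 4 to 5 mice, so the spread between libraries is a spread between pools. Age and sex are not given in the labels. The Fos promoter can act in any cell type of the region, and tagged cells were a part of the tissue that Input represents.

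Chaperones bind unfolded stretches of other proteins and let go of them in cycles that are often driven by ATP. In the cytosol, Hsp70 proteins take up clients handed over by J-domain proteins, Hsp90 and the ring-shaped TRiC complete the folding of particular clients, and small heat shock proteins hold damaged proteins. In the ER, the Hsp70 protein BiP, the Hsp90 protein Grp94, the lectins calnexin and calreticulin and the disulfide isomerases fold secreted and membrane proteins, which neurons make in large amounts as receptors, channels and neuropeptides. The genes of each compartment answer to their own control: heat shock factors act at heat shock elements of many cytosolic and mitochondrial chaperone genes, and the unfolded protein response acts at ER stress elements of ER chaperone genes.

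The ER stress element is shown first because the members that held it all belonged to the ER. All ER members, with or without it, lay on 1 side of the comparison. It was searched as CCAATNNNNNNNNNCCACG on both strands in the 250 bases before the gene starts in RefSeq (GRCm38.p6), a table that held 61 of the 76 members. These letters were in 0.113% of all 32851 windows, in 5 of 12 ER members with a window and in 0 of 35 cytosolic members. Each matching stretch is given in lower case with the fixed letters of the element in capitals, written on the strand where the element reads forward.
Hspa5 (BiP), chr2:34772020-34772048, plus strand: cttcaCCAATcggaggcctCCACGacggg
Calr (calreticulin), chr8:84847070-84847098, plus strand: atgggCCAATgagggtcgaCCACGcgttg
Hsp90b1 (Grp94), chr10:86705633-86705661, minus strand: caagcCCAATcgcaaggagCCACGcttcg
Hsp90b1 (Grp94), chr10:86705528-86705556, plus strand: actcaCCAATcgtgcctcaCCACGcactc
Canx (calnexin), chr11:50325795-50325823, minus strand: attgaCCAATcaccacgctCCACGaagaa
Pdia6, chr12:17266486-17266514, plus strand: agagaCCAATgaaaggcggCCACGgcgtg

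A heat shock element, searched as GAANNTTCNNGAA on both strands, was in 0.466% of the same windows and in 3 of the 61 members with a window. They are shown because they belong to different compartments: the mitochondrial chaperonin pair Hspd1 and Hspe1, which share a start region and with it this stretch, and the cytosolic Dnajb6. No member held both elements in its window. A match describes the letters only and is not evidence of binding.
Hspe1 and Hspd1, chr1:55088056-55088084, plus strand: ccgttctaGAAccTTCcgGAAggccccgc
Dnajb6, chr5:29735844-29735872, plus strand: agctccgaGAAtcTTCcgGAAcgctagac

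The values are TPM, transcript abundances scaled to a fixed total per library, which correct for transcript length, so levels of different genes can be set side by side, but keep no read depth, which is unknown here. The median gene of a library stood between 27.7 and 67.2 TPM, and was lowest in IP 1 (27.7) and Input 3 (31.1). Across genes, the log2 values of Inputs 1 and 2 (r = 0.973) and those of IP 2 and IP 3 (r = 0.962) correlated closely. IP 1 and Input 3 stood apart from the rest of their groups, at 0.722 to 0.882 (genes are not independent replicates). Input 3 correlated more closely with the IP libraries (0.786 to 0.851) than with Inputs 1 and 2 (0.722 and 0.736). Every difference over 6 libraries rests on it as 1 of 3 Inputs. Members are therefore given relative to the median gene of their library: a centred value is log2(TPM + 1) minus the library median of the same, and a difference is the mean centred IP value minus the mean centred Input value. Without centring, the median of all genes differed by -0.23 between IP and Input. Differences are also given from the 4 libraries without IP 1 and Input 3, a reading chosen with earlier results of these data known. Listed cholinergic neuron markers (Chat, Slc18a3, Slc5a7, Isl1 and Prph) had differences above 0 in 5 of 5, with a median of 1.28 (1.69 in the 4 libraries). Of the astrocyte markers 5 of 10 were measured and 4 were below 0 (median -0.36, and -0.58 in the 4 libraries, where limma called Agt and Ntsr2 lower), and of the oligodendrocyte markers 5 of 8 were measured and 3 were below 0 (median -0.05, and -0.43 in the 4 libraries). Of the microglia markers 2 of 8 were measured and 2 were below 0 (median -0.38, and -0.48 in the 4 libraries). Pan-neuronal markers stood on both sides, with 5 of 8 above 0 and 3 below (median 0.18, and 0.03 in the 4 libraries). The part of glial RNA in the values of the members was not tested. In bulk RNA, fewer cells of a type and less RNA per cell cannot be told apart.

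Chaperones were among the more abundant transcripts in every library. Between 49 and 56 of the 76 members lay above the library's median gene. Hspa8, the constitutive cytosolic Hsp70, and Ppia, cyclophilin A, together made up 30.4% to 37.0% of the TPM of all members. Summed, the members took 1.27%, 2.09% and 2.004% of the listed TPM in IP 1, IP 2 and IP 3, and 2.82%, 2.71% and 1.18% in Inputs 1, 2 and 3. That sum was lowest in IP 1 and Input 3, the libraries that stood apart, so it did not separate the groups.

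No member passed the test. limma with Benjamini-Hochberg adjustment over all 5538 genes called 0 of the 76 members higher and 0 lower at an adjusted p of 0.05, against a background of 0% of all genes called higher and 0% called lower, with a smallest adjusted p of 0.649. At an unadjusted p of 0.05 there were 2 members higher, Bag3 and Hspb6, and 2 lower, Dnajc12 and Ppid, against 198 higher and 213 lower among all genes. The SE of a member's difference had a median of 0.31 and ran from 0.22 to 0.78. With 3 libraries a side, exact permutation of the labels for any member gives no p below 0.1.

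Most members leaned to the Input side without passing the test: 51 of 76 (67.1%) had a difference below 0, against 48.2% of all genes, and the median was -0.16, against 0.02. In the 4 libraries 50 of 76 were below 0 and the median was -0.13, against -0.04. All 3 centred IP values lay below all 3 Input values in 11 members (14.5%), where 9.71% of all genes did so. They lay above in 1 member (1.32%), Hspb6, where 6.93% of all genes did so. The 11 were the cytosolic Dnajc12, Dnajb6, Hsph1, Dnajb1, Dnajc7, St13 and Dnajc2, the ER enzymes Pdia4 and Pdia6, and the nuclear Dnajc8 and Fkbp3. Without centring, 66 of 76 members were below 0 with a median of -0.41. On that scale 3846 of all 5538 genes were below 0 too, with a median of -0.23.

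**Figure D1:**
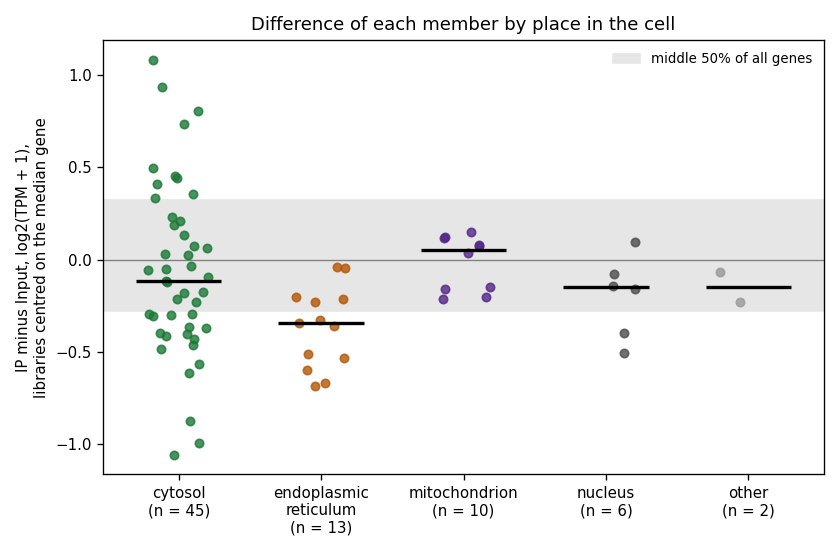
Difference of each of the 76 members (points, IP minus Input of centred log2 values) by compartment, with the compartment's median as a bar. The 13 ER members all lie below 0, whereas the cytosolic members spread from -1.06 (Dnajc12) to 1.08 (Bag3) and the mitochondrial members stay between -0.21 and 0.15.

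In the cytosol, 27 of 45 members were below 0 and the median difference was -0.11. That median was -0.05 without IP 1, -0.06 without IP 2, -0.18 without IP 3 or without Input 2 and -0.09 in the 4 libraries. Hspa8, which binds exposed hydrophobic stretches and strips clathrin from vesicles, was the most abundant Hsp70, at 1300.05, 3503 and 3781 TPM in the IP libraries and 4664, 3905 and 2020.06 TPM in the Input libraries, each in the order 1, 2, 3. IP 1 and Input 3 held its lowest values and the groups overlapped, with a difference of -0.12 (SE 0.38) and 0.06 in the 4 libraries. Hsp90ab1, the constitutive cytosolic Hsp90, stood at 573, 1399.5 and 1427 TPM in IP and 1721, 1540.35 and 547 TPM in Input, a difference of 0.13 (SE 0.34) and 0.08 in the 4 libraries. Its stress-inducible relative Hsp90aa1 stood at 431, 1054 and 1070.25 TPM in IP and 1172, 1317 and 223 TPM in Input, with a difference of 0.41 (SE 0.46) that came to 0.06 in the 4 libraries without IP 1 and Input 3. Both Hsp90 genes thus had their low values in the libraries that stood apart, and their groups overlapped.

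The nucleotide exchange factors of the Hsp110 branch, which recharge Hsp70 with ATP, had no common side. Hsph1 stood at 35.8, 146 and 116.5 TPM in IP and 178, 194 and 81.8 TPM in Input, and all its centred IP values were below the Input values (difference -0.48, SE 0.31, but -0.18 without IP 1 and -0.22 in the 4 libraries). Hspa4l had a difference of -0.37, which became 0.12 in the 4 libraries, and Hspa4 had 0.06 (0.21 in the 4 libraries). Among the remaining cytosolic Hsp70 genes, Hspa12a, an atypical member that is high in brain, stood at 22.9, 57.2 and 48.8 TPM in IP and 41.1, 34.7 and 26.4 TPM in Input. Its difference was 0.49 (SE 0.26) and 0.76 in the 4 libraries. Hspa14, a ribosome-associated member, had -0.23 over 6 libraries and -0.0026 over 4. Of the 8 Hsp70 genes of all compartments, 6 were below 0, but only 3 in the 4 libraries.

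Of the 9 co-chaperones outside the J-domain family 5 were above 0, with a median of 0.02 (-0.13 in the 4 libraries). Stip1 (Hop), which bridges Hsp70 and Hsp90, stood at 131, 325 and 316 TPM in IP and 456, 461 and 135 TPM in Input (difference -0.11, SE 0.31, and -0.23 in the 4 libraries). St13 (Hip), which stabilizes the ADP form of Hsp70, stood at 22.6, 46.2 and 45.6 TPM in IP and 60.1, 63.5 and 49.0 TPM in Input (difference -0.40, SE 0.27). For St13 every IP library was below the lowest Input library, but the difference was -0.15 without Input 3 and -0.13 in the 4 libraries. The Hsp70 exchange factor Hspbp1 had a difference of 0.36 (0.44 in the 4 libraries).

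J-domain proteins, which deliver clients to Hsp70 and start its ATP hydrolysis, made up the largest family, with 25 members, of which 20 were below 0 (median -0.29, and -0.20 in the 4 libraries). Of the 12 cytosolic ones 11 were below 0 with a median of -0.40, whereas of the other 33 cytosolic members 16 were below 0 with a median of 0.02. The cytosolic J-domain median was -0.26 without IP 1 and -0.20 in the 4 libraries, where that of the other cytosolic members was -0.0026. The difference between these groups was not tested. The exception was Dnaja4, at 0.33, whose exons share 1581 bases (44.1% of its exonic bases) with Wdr61 on the opposite strand. No source used here states whether the counting used strand, so reads of that pair may be mixed. The count of cytosolic J-domain members below 0 was 9 of 12 without IP 1 and 11 of 12 without any other single library.

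Dnajb1 (Hsp40), the main J-domain partner of stress-induced Hsp70, stood at 15.5, 48.6 and 43.4 TPM in IP and 71.7, 61.6 and 33.9 TPM in Input, a difference of -0.46 (SE 0.25), which was -0.27 without IP 1 and -0.24 in the 4 libraries. Dnajb6, which keeps aggregation-prone proteins soluble, stood at 36.0, 116 and 115 TPM in IP and 189, 161 and 166 TPM in Input, a difference of -0.87 (SE 0.38). The 3 IP values of Dnajb6 lay below the 3 Input values in TPM as well, and the difference was -0.54 without Input 3 and -0.30 in the 4 libraries. Dnajc7, a bridge between Hsp70 and Hsp90, stood at 124, 311 and 301 TPM in IP and 487, 508 and 192 TPM in Input (difference -0.43, SE 0.27, and -0.41 in the 4 libraries). Its exons share 287 bases (5.9%) with Nkiras2 and 154 bases (3.2%) with the oligodendrocyte gene Cnp, both on the opposite strand. Dnajc5 (cysteine string protein), the J-domain protein of synaptic vesicles, stood at 48.3, 201 and 157 TPM in IP and 197, 216 and 112 TPM in Input. It was lowest in IP 1, with a difference of -0.29 (SE 0.32) and 0.08 in the 4 libraries. Dnaja1 had -0.61, but -0.11 without IP 1 and -0.11 in the 4 libraries. Its exons share 608 bases (7.0%) with Smu1 on the opposite strand. Dnajb4 had -0.57, but -0.255 without IP 1 and -0.10 in the 4 libraries. Dnaja2 had -0.21 and lay on the other side in the 4 libraries, at 0.15. The ribosome-bound Dnajc2 had -0.37 over 6 libraries and -0.20 over 4, Dnajb2 had -0.31 and -0.38, and Dnajc24, which serves diphthamide synthesis, had -0.30 and -0.21.

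Dnajc12, on chromosome 10 (63382443 to 63410576, plus strand, mm10), had the lowest difference of all members. It is a co-chaperone of the aromatic amino acid hydroxylases that make dopamine and serotonin. Its TPM were 47.95, 53.5 and 56.7 in IP and 179.6, 176 and 71.4 in Input, so the IP libraries sat close together and below each Input library, with Input 3 nearest to them. The difference was -1.06 (SE 0.29, unadjusted p = 0.00750, limma adjusted p = 0.649). In the 4 libraries it was -1.38 (limma adjusted p = 0.0052), and Dnajc12 was there 1 of 2 members called, against backgrounds of 3.38% of all genes called higher and 2.89% called lower. Leaving out single libraries gave -1.30 to -0.88.

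Genes of monoamine synthesis were likewise highest in Inputs 1 and 2. Ddc, the decarboxylase of dopamine and serotonin synthesis, stood at 47.5, 257 and 233 TPM in IP and 977, 634 and 47.2 TPM in Input (difference -0.87, SE 0.86). Gch1, which makes the hydroxylases' cofactor, stood at 11.97, 35.0 and 37.7 TPM in IP and 148, 112 and 14.5 TPM in Input (difference -1.04, SE 0.56). Unlike Dnajc12, both were within a few TPM of IP 1 in Input 3. Th had a difference of -0.77 and Tph2 of -0.48. In the 4 libraries limma called Gch1 (-1.51, adjusted p = 0.0063) and Ddc (-1.39, adjusted p = 0.013) lower, but not Th (adjusted p = 0.173) or Tph2 (adjusted p = 0.0809). The part of monoamine neurons in the value of Dnajc12 was not tested.

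**Figure D2:**
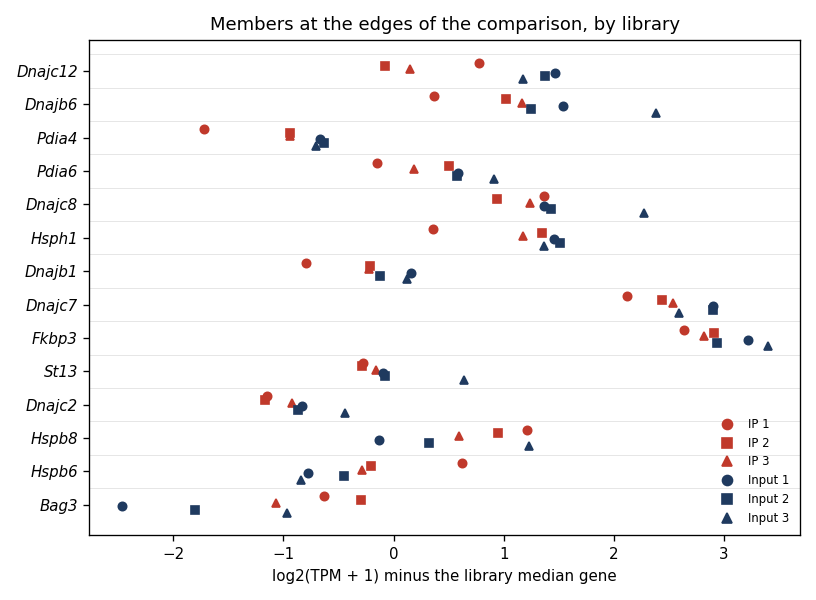
Centred log2 value of the members at the edges of the comparison in each IP and Input library. Dnajc12 sits at -0.077 to 0.772 in IP and 1.175 to 1.467 in Input, and Bag3 is highest in IP 2 at -0.299.

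The TRiC chaperonin, which folds actin and tubulin and is built from equal numbers of its subunits, lay near the median difference of all genes. Of its 8 measured subunits 5 were below 0, with a median of -0.04 (6 of 8 and -0.09 in the 4 libraries). Cct2, Cct4, Cct5, Cct7 and Cct8 had -0.03, -0.09, -0.05, -0.18 and -0.29, Cct3 had 0.08 and Tcp1 had 0.19, with SE between 0.24 and 0.39. The TPM of Cct5 were 143, 304 and 266 in IP and 381, 354 and 159 in Input, and those of Cct8 were 104, 335 and 324 in IP and 468, 395 and 189 in Input. Each was lowest in IP 1 and next lowest in Input 3, and relative to the median gene Cct5 kept within 2.32 to 2.55 in all 6 libraries.

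Cct6a did not follow the other subunits. It stood at 1434, 346 and 385 TPM in IP and 670.42, 445 and 198 TPM in Input. The value in IP 1 was the highest of the complex in any library, although IP 1 was low for most members. Its difference of 0.81 (SE 0.78) came to -0.29 in the 4 libraries. The exons of Cct6a share 452 bases (12.5%) with Psph on the opposite strand, so reads of these genes may be mixed.

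Bag3 and the small heat shock proteins stood on the IP side. Bag3 binds Hsp70 together with Hspb8 and routes damaged proteins to autophagy. It stood at 17.6, 45.8 and 23.9 TPM in IP and 10.8, 18.6 and 15.4 TPM in Input, where IP 1 was lower than Input 2. Its difference was the highest of all members, 1.08 (SE 0.42, unadjusted p = 0.0337, limma adjusted p = 0.649). In the 4 libraries it was 1.45, and limma called it higher (adjusted p = 0.040), as the other of the 2 members called there. Leaving out single libraries gave 0.72 to 1.47.

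The small heat shock proteins Hspb6 and Hspb8, which hold unfolded proteins without ATP, were the 2 measured of their family. Hspb6 stood at 43.2, 49.04 and 41.7 TPM in IP and 37.2, 49.0 and 16.9 TPM in Input. Its centred IP values were all above the Input values, while in TPM IP 2 and Input 2 were alike (difference 0.73, SE 0.31, limma adjusted p = 0.649, and 0.37 in the 4 libraries). Hspb8 stood at 65.3, 110.12 and 77.3 TPM in IP and 58.6, 84.4 and 74.1 TPM in Input, with overlapping groups and a difference of 0.44 (SE 0.39), which was 0.14 without Input 1 and 0.67 in the 4 libraries. In TPM, IP 2, the highest library for Bag3 and Hspb8, was also the highest for Ly6c1, the only 1 of 6 listed endothelial markers with a value (50.3, 278 and 67.3 TPM in IP and 34.9, 35.4 and 21.9 TPM in Input). Relative to the median gene, Bag3 was still highest in IP 2 (-0.299). Hspb8 was then higher in IP 1 (1.21) and Input 3 (1.228) than in IP 2 (0.95). The part of vascular RNA in these values was not tested.

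The other BAG proteins showed no common side. Bag1, which couples Hsp70 to the proteasome, stood at 217, 279 and 267 TPM in IP and 311, 426 and 28.2 TPM in Input. Only Input 3 stood far from the rest. The difference was 0.93 (SE 0.70) with it and -0.13 in the 4 libraries. Bag2, an inhibitor of the ubiquitin ligase Chip, had -0.42 over 6 libraries and -0.32 over 4. Bag4 had 0.21 and 0.29, Bag5 -0.06 and 0.14, and Bag6 0.02 and -0.23, in the same order.

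Immunophilins, the cyclophilins and FK506-binding proteins that turn proline bonds, were spread over all compartments, with 9 of 14 below 0 and a median of -0.06 (9 of 14 and -0.22 in the 4 libraries). Ppia stood at 2402, 2144 and 2465 TPM in IP and 4486, 4216 and 1049 TPM in Input. Here IP 1 was not low, Inputs 1 and 2 were nearly alike, and Input 3 was lowest (difference 0.03, SE 0.49, and -0.63 in the 4 libraries). Fkbp1a (FKBP12), which modulates calcium release channels and is the target of FK506, stood at 314, 384 and 388 TPM in IP and 514, 584 and 379 TPM in Input, a difference of -0.18 (SE 0.33) and -0.22 in the 4 libraries. Its close relative Fkbp1b stood at 124, 114 and 155 TPM in IP and 134, 163 and 64.9 TPM in Input, a difference of 0.45 (SE 0.33), which was 0.17 without IP 1 and 0.13 in the 4 libraries.

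Ppid (cyclophilin 40), an Hsp90 partner in steroid receptor complexes, had the second lowest difference. It stood at 17.7, 63.1 and 74.1 TPM in IP and 121, 92.9 and 103 TPM in Input, so every IP value was below every Input value in TPM. After centring, IP 3 (0.53) was above Input 2 (0.46) and the groups overlapped. The difference was -0.99 (SE 0.42, unadjusted p = 0.0479, limma adjusted p = 0.649), -0.66 without Input 3 and -0.34 in the 4 libraries. Fkbp4, another Hsp90 partner in the same complexes, had 0.23 over 6 libraries and 0.10 over 4, and Fkbpl, a further tetratricopeptide protein, had -0.41 and -0.77.

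**Figure D3:**
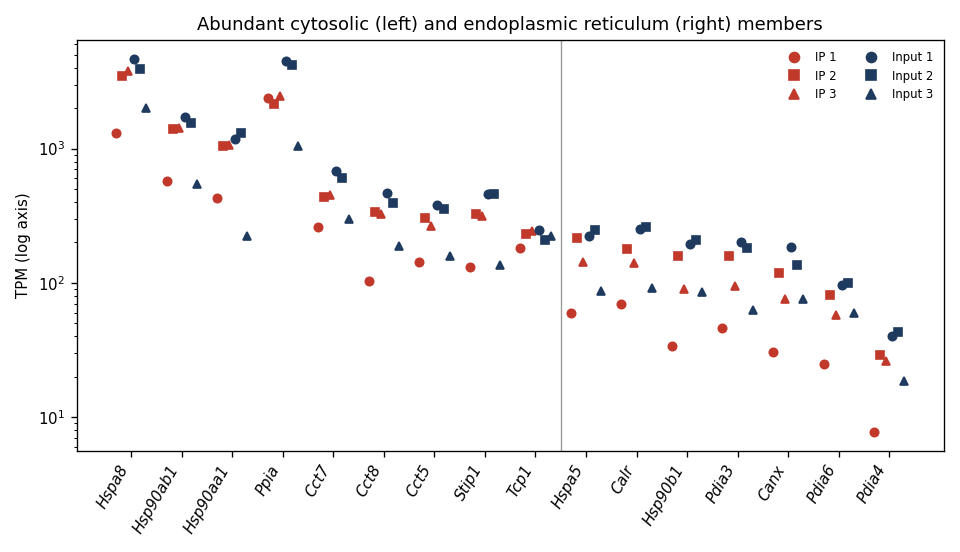
TPM (log axis) of abundant and ER members in each IP and Input library. IP 1 and Input 3 give the low points of most genes, such as 1300.05 and 2020.06 TPM for Hspa8. The groups overlap for every gene shown.

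In the ER, 13 of 13 members had a difference below 0, with a median of -0.34 and a range from -0.69 to -0.04, although none passed the test and none reached an unadjusted p of 0.05. All 13 were below 0 in the 4 libraries as well, with a median of -0.33. Leaving out single libraries left 11 to 13 below 0. The largest were Hsp90b1 and Canx, and the members nearest 0 were Ppib and Fkbp2.

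Hspa5 (BiP), the ER Hsp70 that also holds the stress sensors of the unfolded protein response inactive, stood at 59.7, 217 and 144 TPM in IP and 225, 248 and 87.7 TPM in Input. Its groups overlapped, with a difference of -0.21 (SE 0.30), -0.01 (-0.009) without IP 1 and -0.13 in the 4 libraries. Hsp90b1 (Grp94), which folds integrins and Toll-like receptors, stood at 33.8, 159 and 90.8 TPM in IP and 194, 208 and 85.8 TPM in Input. IP 2 and IP 3 lay between Input 3 and the other Inputs in TPM, and the difference was -0.69 (SE 0.34, limma adjusted p = 0.668), -0.40 without IP 1 and -0.45 in the 4 libraries.

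The lectin chaperones hold glycoproteins until their sugar chains are trimmed. Canx, the membrane-bound form, stood at 30.8, 118 and 76.2 TPM in IP and 184, 136 and 76.4 TPM in Input. Its difference was -0.67 (SE 0.30, limma adjusted p = 0.654) and -0.44 in the 4 libraries. Calr, the soluble form, stood at 69.9, 179 and 141 TPM in IP and 253.5, 263 and 91.1 TPM in Input, with a difference of -0.34 (SE 0.26) and -0.41 in the 4 libraries. Both were above IP 2 and IP 3 in Inputs 1 and 2.

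All 3 measured disulfide isomerases of the Pdia group, which make and reshuffle disulfide bonds, were below 0 (median -0.51, and -0.29 in the 4 libraries). Pdia4 stood at 7.71, 28.9 and 26.1 TPM in IP and 40.1, 42.9 and 18.7 TPM in Input, a difference of -0.53 (SE 0.28), which was -0.27 without IP 1 and -0.29 in the 4 libraries. Pdia6, which also switches off the stress sensor IRE1, stood at 24.8, 80.6 and 58.0 TPM in IP and 96.95, 100.36 and 59.5 TPM in Input, a difference of -0.51 (SE 0.26) and -0.23 in the 4 libraries. Relative to the median gene, all IP values of these enzymes were below all Input values. Pdia3, the partner of calnexin and calreticulin, stood at 46.2, 158 and 94.9 TPM in IP and 202, 180.5 and 62.7 TPM in Input (difference -0.32, SE 0.31, -0.17 without IP 1 and -0.35 in the 4 libraries), and its groups overlapped.

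The remaining ER members were mostly less abundant. Dnajb11, the J-domain partner of BiP, had -0.36 (SE 0.35) and -0.02 in the 4 libraries. Dnajc10, a J-domain protein with disulfide reductase activity, had -0.20 over 6 libraries and -0.08 over 4, and Dnajc18 had -0.23 and -0.13. Dnajc14 had -0.60, but -0.09 (-0.091) without Input 3 and -0.33 in the 4 libraries. The ER immunophilins Ppib and Fkbp2 were each at -0.04, but at -0.45 and -0.74 in the 4 libraries. The 5 ER members with a stress element in their window, shown above, had -0.69 (Hsp90b1), -0.67 (Canx), -0.51 (Pdia6), -0.34 (Calr) and -0.21 (Hspa5). The 1 listed gene outside the members with the same letters, Creld2, another ER stress gene, had 0.49 (SE 0.76).

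Mitochondrial members lay around 0, with 6 of 10 above 0 and a median of 0.05 (5 of 10 and -0.05 in the 4 libraries). Hspa9 (mortalin), the Hsp70 of the import motor, stood at 54.6, 159 and 159.9 TPM in IP and 195, 169.7 and 108 TPM in Input, a difference of -0.20 (SE 0.28) and 0.10 in the 4 libraries. The chaperonin genes Hspd1 (Hsp60) and Hspe1 (Hsp10), which form a folding chamber together, had -0.21 (SE 0.35) and 0.08 (SE 0.34). Their signs were exchanged in the 4 libraries, at 0.29 and -0.25. They share a start region, shown above, but in IP 1 Hspe1 stood at 143 TPM and Hspd1 at 54.0 TPM. In IP 2 the values were 132 and 174 TPM, so their order differed between these libraries. Dnajc15, Dnaja3, Dnajc19, Ppif and Dnajc11 had 0.15, 0.12, 0.12, 0.07 and 0.03 over 6 libraries, and -0.27, 0.15, -0.25, 0.20 and 0.25 over 4. Fkbp8 of the outer membrane had -0.16 and -0.19, and Dnajc30 -0.15 and -0.31. Dnajc30 shares 26.2% of its exonic bases with Bud23 on the opposite strand.

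Of the 6 nuclear members 5 were below 0 (median -0.15), and 4 in the 4 libraries (median -0.18). Dnajc8, a splicing factor, stood at 72.9, 109 and 122 TPM in IP and 167, 183 and 154 TPM in Input, so every IP library was below every Input library (difference -0.51, SE 0.32, but -0.215 without Input 3 and -0.31 in the 4 libraries). Fkbp3 stood at 177, 431 and 366 TPM in IP and 607, 523 and 337 TPM in Input, and its groups separated only after centring (difference -0.40, SE 0.28, and -0.22 in the 4 libraries). The histone chaperone Dnajc9 had -0.16 (-0.14 in the 4 libraries). The spliceosomal cyclophilins Ppig, Ppih and Ppie had -0.14, -0.08 and 0.09 over 6 libraries and 0.11, -0.32 and 0.07 over 4. Dnajc4 and Dnajc27, the members of other places, had -0.07 and -0.23 over 6 libraries and -0.38 and -0.04 over 4.

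Set against each other, cytosolic members stood further above ER members in IP than in Input. The median centred value of the cytosolic members was 0.78, 1.09 and 1.18 in IP 1, IP 2 and IP 3 and 1.46, 1.25 and 1.25 in Inputs 1, 2 and 3. That of the ER members was 0.15, 0.60 and 0.57 in IP and 1.05, 1.01 and 0.92 in Input. In both compartments the 3 IP libraries were below the 3 Input libraries, with the wider gap in the ER. Mitochondrial medians were 0.95, 0.98 and 1.10 in IP and 1.11, 1.04 and 0.89 in Input, and overlapped.

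The cytosolic median minus the ER median was 0.63, 0.49 and 0.61 in IP and 0.40, 0.24 and 0.34 in Input. Its means were 0.58 ± 0.07 (SD, n = 3) and 0.33 ± 0.08 (SD, n = 3), a difference of 0.25 on the log2 scale, larger than either SD. The lowest IP library (0.49) was above the highest Input library (0.40). Since the members were chosen with results known, no p is given. The difference was 0.23 in the 4 libraries and 0.21 to 0.29 with single libraries left out. Being taken within a library, it was the same with and without centring.

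**Figure D4:**
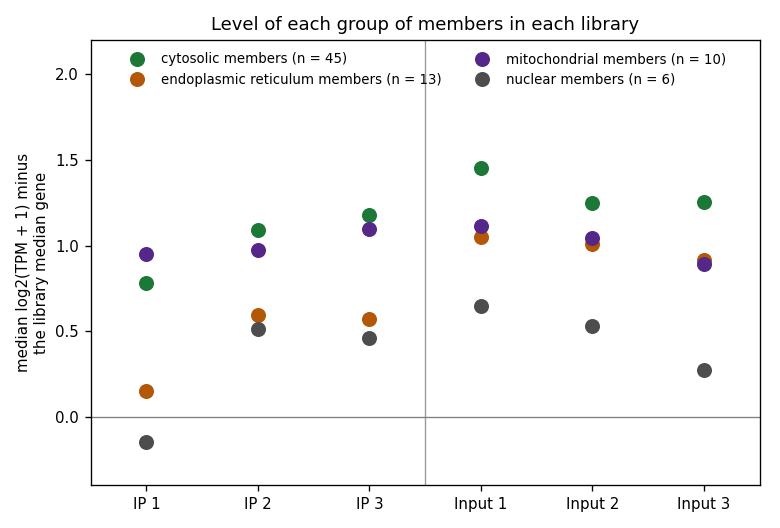
Median centred log2 value of the members of each compartment in each IP and Input library. ER medians run from 0.15 to 0.60 in IP and from 0.92 to 1.05 in Input, and mitochondrial medians overlap between the groups.

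ER folding factors that the symbols of the rule do not cover stood on both sides of 0. Of 35 such genes 19 were measured, and 9 of the 19 were below 0, with a median of 0.03 and 0 called. Of the 19, 11 were below 0 in the 4 libraries, with a median of -0.06. P4hb, the founding protein disulfide isomerase, stood at 81.4, 99.3 and 113 TPM in IP and 105, 135 and 89.0 TPM in Input, a difference of 0.09 (SE 0.31). Sdf2l1, a partner of BiP, had 0.45 and Xbp1, the transcription factor of the unfolded protein response, had -0.25. Lowest were the thioredoxin-like membrane protein Tmx4 at -0.80 (SE 0.48) and the selenoprotein Selenof at -0.71 (SE 0.25). No test of ER members against these genes was made.

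Cytosolic folding factors outside the rule were measured for 24 of 27 genes, of which 15 were below 0 (median -0.10) and 0 were called, and 18 were below 0 in the 4 libraries (median -0.27). Their lowest was Vbp1, a prefoldin subunit that passes actin and tubulin to TRiC, at 21.5, 60.55 and 77.8 TPM in IP and 145, 140.5 and 116 TPM in Input (difference -1.24, SE 0.35, limma adjusted p = 0.649). The Hsp90 co-chaperone Ptges3 (p23) had -0.86 and the TRiC regulator Pdcl3 had -0.74. In the 4 libraries limma called the prefoldin subunit Pfdn2 (-1.29, adjusted p = 0.0093) and Pdcl3 (-1.07, adjusted p = 0.022) lower. Hsf1, the heat shock factor, had -0.14. Outside the rule the ER median (0.03, and -0.06 in the 4 libraries) was thus above the cytosolic median, opposite to the order among the members. Mitochondrial factors outside the rule were measured for 8 of 10 genes, with 5 above 0 (median 0.16, and 0.23 in the 4 libraries) and 0 called, and the protease Lonp1 had 0.96 (SE 0.37) and the import motor subunit Timm44 0.60 (SE 0.23).

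Across the 76 members, the difference over 6 libraries and that over 4 had a Spearman correlation of 0.53, a description of fits that share those 4 libraries. Bag3 and Dnajc12 stood at the ends of both, while Bag1 and Cct6a were among the highest over 6 libraries and below 0 over 4. Ppid and Dnajb6 kept their side but came nearer to 0. The median SE of a member's difference was 0.31 over 6 libraries and 0.20 over 4. Leaving out the libraries that stood apart from their groups tends to lower the SE, so the lower value is no sign of greater precision.

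**Figure D5:**
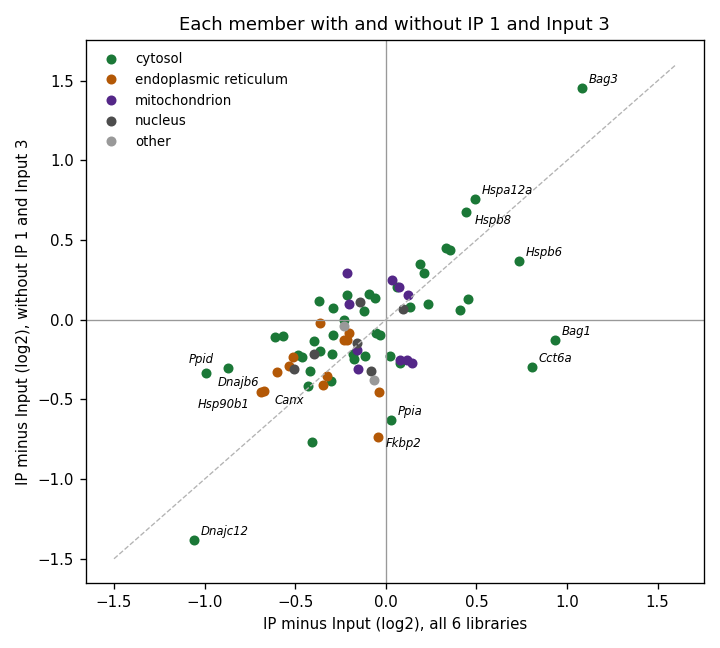
Difference of each member (IP minus Input, centred log2) over all 6 libraries (horizontal) and over the 4 libraries without IP 1 and Input 3 (vertical), coloured by compartment, with the line of equal values. All ER members lie below 0 on both axes, and Bag1 and Cct6a lie at 0.93 and 0.81 on the first axis and at -0.13 and -0.29 on the second.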

How the data were processed

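The deposited table holds TPM computed by the authors for 5538 genes in 6 libraries. RSEM, DESeq and the build mm10 are named in the submitters' processing notes, without versions or roles. An aligner is not given in any source used here. No listed value is below 7.00 TPM, so a gene that was lower in even 1 library is missing from it, and read depth is unknown. log2(TPM + 1) was centred on each library's median and IP compared with Input per gene in limma 3.58.1 under R 4.3.3 (lmFit and trended eBayes, no term besides group). p-values were adjusted by Benjamini-Hochberg across the whole table and called at 0.05. Differences on this scale understate the change of low genes. The fit was tested on simulated data. All 76 member IDs matched GENCODE M21. Named were 27 fixed members, the 8 with the highest and the 8 with the lowest difference, and up to 10 a direction with non-overlapping groups, 43 in all. The other members are given with their families and compartments, so that all are accounted for, and were named after their values were seen. Members, lists and alternatives were chosen with earlier results of these data known. Alternatives were a pseudocount of 0.1, a mean TPM of at least 20, no centring, quantile normalization, a replicate block, and the omission of single libraries or of IP 1 and Input 3 together.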

Additional observations from a re-analysis of the deposited data

How the results depend on the processing

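Under every alternative run but 2, limma called 0 genes. It called 17 genes (16 higher, 1 lower) without Input 3, none of them a member, and 347 genes (187 higher, 160 lower), 2 of them members, without IP 1 and Input 3 together. Single leave-outs gave 0 to 17 genes. The members' median was -0.41 (-0.406) without centring, the cytosolic median was -0.24 with quantile normalization, and the cytosolic minus ER difference was 0.347 at a mean TPM of at least 20. Of all 76 members, the sign turned in 15 without centring, in 3 with quantile normalization and in 17 without IP 1 and Input 3 together. Of the 43 named members it turned without centring in Cct3 (-0.17), Hsp90ab1 (-0.11), Hspe1 (-0.17), Ppia (-0.215) and Tcp1 (-0.059), and with quantile normalization Hsp90ab1 (-0.34), Hspe1 (-0.012) and Ppia (-1.08). Without IP 1 and Input 3 together the named members that turned were Bag1 (-0.13), Cct3 (-0.27), Cct4 (0.16), Cct6a (-0.29), Dnajc5 (0.075), Hspa8 (0.058), Hspa9 (0.10), Hspd1 (0.29), Hspe1 (-0.25) and Ppia (-0.63). The cause was not tested. Leaving out single libraries, the range crossed 0 among the named members for Cct2 (-0.17 to 0.16), Cct3 (-0.34 to 0.33), Cct4 (-0.25 to 0.11), Cct5 (-0.10 to 0.012), Cct6a (-0.16 to 1.37), Dnajc5 (-0.50 to 0.016), Hsp90aa1 (-0.061 to 0.67), Hsp90ab1 (-0.039 to 0.27), Hspa8 (-0.28 to 0.065), Hspd1 (-0.41 to 0.076), Hspe1 (-0.25 to 0.32), Ppia (-0.30 to 0.28), Stip1 (-0.35 to 0.014) and Tcp1 (-0.064 to 0.53). The TPM filter left 42 of the 43 named members with a value, all with their sign kept.

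With the replicate number as a block, limma called 0 genes and 0 members, the members' median was -0.16, the cytosolic minus ER difference 0.25, and the sign of all 43 named members was kept. Deviations from the group means of same-numbered IP and Input libraries correlated at -0.10, 0.25 and -0.17. Within a group the deviations of a gene from the group mean cancel out by construction. Those of the library that stood apart, being the largest, therefore had to run against those of the others, which is no finding about the libraries. The libraries that stood apart carry different numbers, so the correlations of same-numbered libraries cannot show whether the numbers pair the samples.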

Other observations

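The heat shock element letters were also before the start of 26 listed genes outside the members, of which 15 had a difference below 0 (median -0.16). Across 75 members with a transcript length, the centred level and the length had a Spearman correlation of -0.35 in IP 1 and of -0.25 to -0.15 in the other 5 libraries, and the difference between IP and Input had -0.14 with length. Across all 76 members it had 0.14 with the level's rank. These describe members that share their libraries, and no p is given.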
